A study of Capra hircus with 4 samples.

Results

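Pericytes of the goat ovary were taken from single-nucleus RNA counts as the nuclei that passed a marker rule, and 201 of 48332 nuclei passed it. A nucleus was counted in when it held at least 500 unique molecular identifiers (UMIs, 1 for each RNA molecule read), a UMI of NOTCH3 or RGS5, a UMI each of at least 2 of EBF1, ABCC9, PDGFRB, KCNJ8, CSPG4, MCAM and DKK2, and no UMI of the endothelial genes PECAM1 or CDH5. The nuclei came from the ovaries of 2 Nubian goats, chosen for litters of 3, and 2 Du'an goats, chosen for litters of 1. The goats of both breeds were about 3 years old and had all carried a vaginal device with 300 mg of progesterone for 17 days to synchronize estrus, so no untreated goat was measured. Each goat gave 1 library, made with a droplet kit that reads the 3′ end of transcripts, and the libraries are called Du'an 1, Du'an 2, Nubian 1 and Nubian 2, with values given in this order. The rule found 34, 27, 122 and 18 nuclei of 9364, 10893, 16988 and 11087. With 2 goats per breed, breed cannot be told apart from anything else in which those goats differed.

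Pericytes are mural cells that sit in the basement membrane of capillaries and small venules, in contact with the endothelium. Endothelial PDGFB draws them to the vessel through their receptor PDGFRB, endothelial JAG1 acts on their receptor NOTCH3, and their own ANGPT1 acts on the endothelial receptor TEK. They regulate capillary diameter by calcium entry and cyclic GMP, and in the ovary they cover the vessels that grow with each follicle and corpus luteum. They form a continuum with vascular smooth muscle cells, with which they share many genes.

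The genes of the rule are given as a description, because the nuclei were chosen by their UMIs of these genes. Levels are in CPM, the UMIs of a gene in the summed nuclei scaled to a common total. They were 288, 304, 236 and 254 for NOTCH3, the receptor that mural cells use to read endothelial JAG1. RGS5, a regulator of G-protein signalling used as a pericyte marker, stood at 136, 298, 138 and 145 CPM, highest in Du'an 2. EBF1, a transcription factor of mural cells, was at 2161, 1277, 1151 and 1409 CPM, and 181 of the 201 nuclei held it. PDGFRB was close in the 4 libraries, at 158, 116, 166 and 176 CPM. ABCC9, the regulatory subunit of a potassium channel that opens when ATP is low, had 62.2, 134, 151 and 109 CPM. DKK2, a secreted WNT antagonist, was at 498, 328, 178 and 104 CPM, and the Du'an libraries lay above the Nubian ones. KCNJ8, the pore subunit that partners ABCC9, was near the limit of detection with 1, 0, 6 and 2 UMIs, so the channel pair was seen together in only 6 nuclei. By entry gene, 113 of the 201 nuclei held NOTCH3 alone, 43 RGS5 alone and 45 both.

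As a measure of free RNA, the same genes were read in granulosa nuclei, which were taken to lack most of them. These were gated by FSHR with a further granulosa gene, and there were 2014, 4876, 8241 and 2710 of them. NOTCH3 had a UMI in 85.3%, 81.5%, 75.4% and 83.3% of pericyte nuclei and in 1.04%, 1.21%, 0.862% and 0.554% of granulosa nuclei. RGS5 had a UMI in 32.4%, 48.1%, 45.9% and 44.4% of pericyte nuclei and in 2.78%, 0.861%, 1.44% and 1.22% of granulosa nuclei. EBF1 was more frequent there, in 3.08% of granulosa nuclei of Du'an 1, 3.67% of Du'an 2 and 8.85% of Nubian 1 (89.2 CPM). For EBF1, free RNA and the granulosa nuclei's own transcripts were not told apart. The comparison classes held some of these genes too. DKK2 had 1094, 189.8, 564 and 239 CPM in blood endothelium, above pericytes in every library but Du'an 2, and EBF1 had 770.1, 230.1, 770.3 and 234 CPM there and 239, 536, 473 and 125 CPM in stromal cells. ABCC9 came to 96.7 CPM in stromal cells of Nubian 2. NOTCH3 was at most 18.5 CPM in the smooth muscle, stromal and endothelial classes of any library, and RGS5 lay below its pericyte level in each of them. Nuclei that passed the pericyte rule were left out of the smooth muscle and stromal classes. Low levels of the rule's genes in these classes are therefore partly built in and are given as a description. The pericyte nuclei were not deeper in every library, with median depths of 2329, 3170, 4314.5 and 4162 UMIs against 5997.5, 5750.5, 3765 and 4732 in granulosa nuclei.

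**Figure D1:**
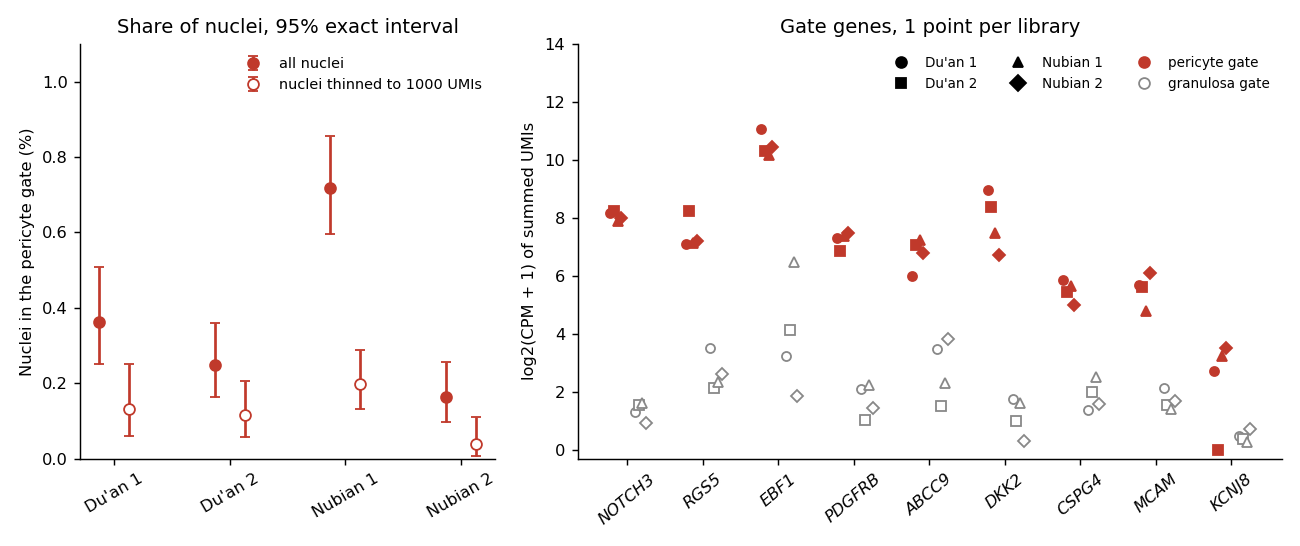
Left, the share of nuclei in the pericyte gate in each library (percent, with exact 95% binomial intervals), for all nuclei and for nuclei of at least 1000 UMIs thinned to 1000. Right, log2(CPM + 1) of the gate's positive genes in pericytes (red) and granulosa nuclei (grey), 1 point per library; all genes but KCNJ8 lie higher in pericytes in every library, and Nubian 1 has the highest share at 0.718%.

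The label was checked against markers of other cells. Of the 201 nuclei, 133 (66.2%) held at least 3 of 9 contractile smooth muscle genes, among them MYH11, the heavy chain of smooth muscle myosin, and ACTA2, its actin. By these genes most of the gate cannot be told apart from vascular smooth muscle. MYH11 stood at 815, 675, 350 and 648 CPM and ACTA2 at 1171, 681, 560.4 and 3440.0 CPM, both within or above the range of the smooth muscle class (518 to 857 and 528 to 1317 CPM) apart from MYH11 in Nubian 1. MYH11 also had a UMI in 32.9% to 51.4% of granulosa nuclei, so a UMI of it alone does not mark a nucleus. Of 30 pericyte genes that the rule does not use, 6 had at most 2 UMIs in all gated nuclei, and 18 passed the filter on low counts and are described further on. HIGD1B, which marks lung and brain pericytes, and FOXC1 had 2 UMIs, EBF2 and NDUFA4L2 had 1 each, and STEAP4 and FOXF2 had none. The nuclei are called pericytes below in the sense of the rule.

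The nuclei varied in how much of the contractile program they held. The 24, 21, 75 and 13 nuclei with at least 3 smooth muscle genes had median depths of 3054, 3160.0, 5419 and 10259 UMIs, and the 10, 6, 47 and 5 others 1258.5, 3968, 2173 and 1058 UMIs. PRKG1, the cyclic GMP-dependent kinase, which the rule does not use, had 6867, 4732, 3912 and 5320.5 CPM in the former and 6748, 5508, 4229 and 5145 CPM in the latter, and neither subset was higher in every library. Levels of the rule's own genes are not compared between these subsets, since the rule fixes a minimum of their UMIs in each nucleus whatever its depth.

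Transcripts of granulosa cells, the most frequent of the gated classes, were also present. The 11 granulosa markers summed to 299.8, 4754, 3258 and 891 CPM in pericytes against 5225, 8947, 12778 and 6826 CPM in granulosa nuclei, with 8, 10, 10 and 9 of the 11 seen. Their most abundant gene was FSHR, the follicle-stimulating hormone receptor, in Du'an 1, NR5A2 in Du'an 2 and SERPINE2 in both Nubian libraries. FOXL2, which defines granulosa cells, was at 0 in every library. A UMI of any of 7 genes of other cell types (FSHR, CYP19A1, PTPRC, PROX1, EPCAM, CYP17A1 and CSF1R) was held by 12 of 34, 19 of 27, 101 of 122 and 6 of 18 nuclei. The comparison classes held granulosa transcripts too, with 1483, 2415, 3008 and 1342 CPM in smooth muscle and 377, 729, 1319 and 161 CPM in blood endothelium. The part of these transcripts in the comparisons was not tested.

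Single nuclei weighed heavily in the small libraries. The gated nuclei summed to 176791, 164493, 717339 and 193024 UMIs, and the deepest nucleus alone gave 18.7%, 21.2%, 3.53% and 22.4% of these. In Nubian 2 the deepest nucleus, with 43307 UMIs, gave each of the 99 UMIs of the epithelial keratin KRT18. Another, with 36595 UMIs, gave each of the 91 UMIs of POSTN, a matrix protein of fibroblasts, 90.3% of the 815 UMIs of COL3A1 and 86.9% of the 664 UMIs of ACTA2. Epithelial markers summed to 260.2, 128, 205 and 1404 CPM, with KRT8 the most abundant gene in Nubian 2 and WT1 in the other libraries, while EPCAM, which defines epithelium, was at 0 in Nubian 2. Stromal markers summed to 5521, 3751, 6251 and 13983 CPM and were likewise highest in that library. In the stromal class they came to 3591, 4882, 8159 and 4364 CPM, so that pericytes were above it in Du'an 1 and Nubian 2. The most abundant stromal marker in pericytes was LAMA2 in Du'an 1, TSHZ2 in Du'an 2 and COL3A1 in both Nubian libraries. At least 2 of the 9 stromal markers in the files were held by 67.6%, 85.2%, 88.5% and 72.2% of pericyte nuclei, by 53.1%, 68.7%, 66.4% and 63.7% of smooth muscle nuclei and by 24.9%, 32.5%, 24.1% and 28.9% of granulosa nuclei. The part of stromal transcripts in the comparisons was not tested. Endothelial markers, which the rule limits, came to 243, 292, 553 and 202 CPM. Immune markers reached 39.6, 334, 431 and 67.3 CPM, and lymphatic ones 84.8, 195, 82.2 and 51.8 CPM, which is highest in Du'an 2. Theca markers had 328, 644, 311 and 192 CPM, led by the luteinizing hormone receptor LHCGR in all libraries but Nubian 2, with INSL3, a hormone made by theca cells, at 0 in every library, and cycling markers 39.6, 249, 234 and 31.1 CPM. Pairs of libraries shared 54 to 131 cell barcodes, at most 1.40% of the smaller one, and 2 gated nuclei, both of Nubian 1, had a barcode that occurs in another library.

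**Figure D2:**
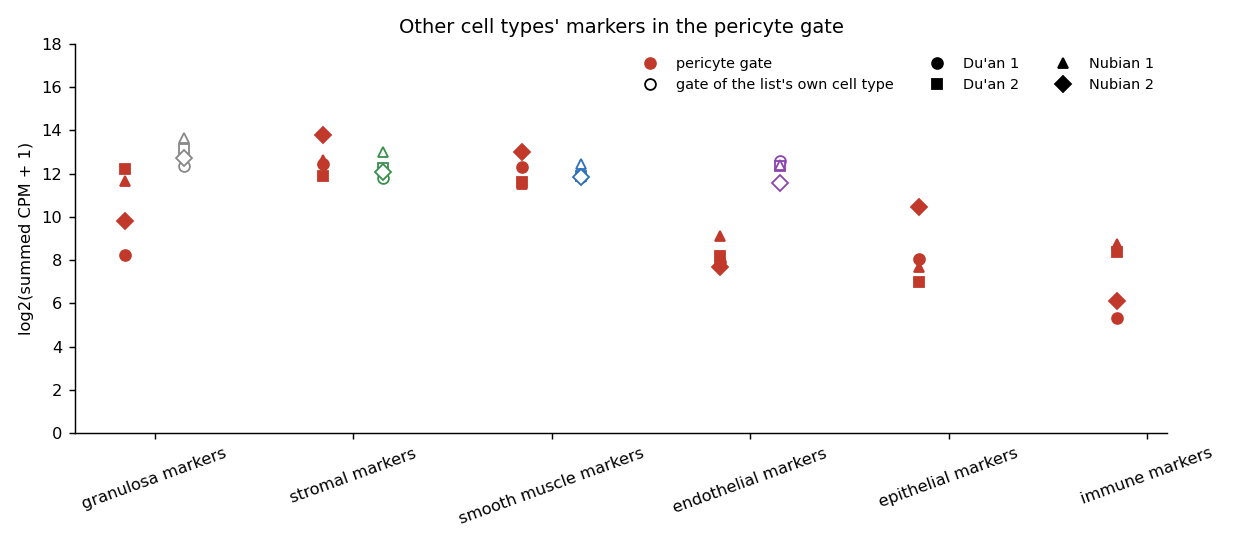
Summed CPM of marker lists of other cell types (log2 scale, 1 point per library) in pericytes (red) and in the gate of the list's own cell type (open symbols). Granulosa transcripts varied from 299.8 to 4754 CPM between libraries, and epithelial and stromal markers were highest in Nubian 2.

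Nuclei on both sides of the threshold were compared by the summed level of pericyte genes that the rule does not use. With exactly 2 support genes (117 nuclei) the level was 2706, 1613, 1559 and 2198 CPM, and with 3 or more (84 nuclei) 4740, 4300, 2758 and 3513 CPM. Just outside, nuclei with NOTCH3 or RGS5 and 1 support gene stood at 1733, 1173, 979 and 1383 CPM, and those with none at 922, 580, 657 and 963 CPM. In every library the level was lower with fewer support genes. A further 1, 3, 27 and 2 nuclei met the positive part of the rule but carried PECAM1 or CDH5.

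To find where pericytes differ from their neighbours, UMIs were summed per goat and class and compared with 3 other gated classes in 1 edgeR quasi-likelihood fit, with the goat as a block. The classes were smooth muscle (1159, 230, 1097 and 746 nuclei with at least 3 contractile genes), stromal cells (198, 95, 187 and 180 nuclei with PDGFRA and further stromal genes) and blood endothelium (207, 276, 231 and 99 nuclei). Their median depths were 1501, 1964, 1557 and 1409.5 UMIs, 1827, 2523, 2031 and 2339.5 UMIs, and 2278, 2908.5, 2711 and 4275 UMIs, so that pericyte nuclei were deeper than smooth muscle and stromal ones in every library, and the part of depth in the calls was not tested beyond the thinned sums. The smooth muscle class did not take in the pericytes with at least 3 contractile genes, which in Du'an 1 held 21 UMIs of RGS5 against 6 in the class. In the libraries, 514, 656, 1946 and 440 nuclei met more than 1 comparison gate. The fit tested 9597 genes, without any gene used by a gate, and an adjusted p under 0.05 (Benjamini-Hochberg) was called. Few genes were called against smooth muscle and stromal cells, and many against endothelium. Against smooth muscle 143 genes (1.49%) were called, 119 higher (1.24%) and 24 lower (0.25%) in pericytes. Against stromal cells the calls were 228 (2.38%), 156 higher (1.63%) and 72 lower (0.75%). Against blood endothelium 1874 (19.5%) were called, 911 higher (9.49%) and 963 lower (10%), and without TMM scaling, which moved the median log2 fold change of all genes from -0.10 to 0.05 there, 1074 were higher and 755 lower. The counts against smooth muscle and stromal cells fell with 1 library left out: without Du'an 1 they were 9 and 15, without Du'an 2 they were 22 and 21, and without Nubian 2 the stromal count was 111 and the smooth muscle count 86. Without Nubian 1 they were 106 and 196, and against endothelium leaving out Du'an 1 gave 1210. Without the deepest nucleus of each library, 137 of the 143, 196 of the 228 and 1700 of the 1874 genes were called again. The balance of directions depended on the nuclei included. Without nuclei holding other cell types' transcripts, 184 genes were higher and 325 lower than in smooth muscle, 191 and 317 than in stromal cells, and 558 and 937 than in endothelium. Without nuclei of 3 or more smooth muscle genes, which removes 133 of the 201, these counts were 33 and 41, 17 and 13, and 381 and 716. In the main fit, 1339, 1528 and 3032 of the 9597 genes had an unadjusted p under 0.05 (smooth muscle, stromal cells, endothelium). DESeq2 called 408, 462 and 2134 of them.

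Of 36 called genes considered against smooth muscle (those of the naming rule and of the lists below), 4 were called without Du'an 1, 7 without Du'an 2, 26 without Nubian 1 and 21 without Nubian 2, and all kept their direction. TRPC6, NTF3 and NEURL1B were called in each of these 4 fits. Of 53 such genes against stromal cells, the counts were 7, 8, 41 and 21, and TRPC6, NTF3, TBX2, ITGA1, RYR2, CA10 and RIMS2 were called in each. Against stromal cells and endothelium, too, each gene with a value in these fits kept its direction. A call lost with 1 library left out is therefore an adjusted p above 0.05, not a change of direction. Without nuclei of 3 or more smooth muscle genes, 11 of the 36 and 8 of the 53 were called, and 3 of the 53 changed sign (CALCRL, KCNAB1 and TRPM3). In that setting TRPC6, TBX2 and ITGA1 were called against both classes, NEURL1B against smooth muscle, and CA10 and RIMS2 against stromal cells. RYR2 was not called (adjusted p = 0.071), and NTF3 did not pass the filter on low counts. Leaving out instead the 1 nucleus of Nubian 2 that held its POSTN, 35 of the 36 and 49 of the 53 were called, and of 169 against endothelium 165. The calls lost were those of POSTN against smooth muscle, of MYL9, CALD1, ELN and PDGFC against stromal cells, and of MYL9, CACNA1D, PDLIM7 and SMAD6 against endothelium. The genes called with each library left out are described first.

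TRPC6, a calcium-permeable cation channel opened by diacylglycerol, was higher in pericytes than in each of the 3 classes. It stood at 1222, 602, 428 and 316 CPM in pericytes, 87.1, 123, 98.4 and 92.3 in smooth muscle, 87.0, 121, 78.2 and 61.7 in stromal cells and 8.68, 19.7, 18.1 and 10.3 in endothelium. The lowest pericyte library lay above the highest library of any other class. The log2 fold change was 2.56 ± 0.32 (SE) against smooth muscle (edgeR adjusted p = 0.00175), 2.80 ± 0.33 against stromal cells (adjusted p = 9.69e-04) and 5.24 ± 0.38 against endothelium (adjusted p = 1.71e-06). It was seen in 102 of the 201 nuclei, and in 9.53%, 23.1%, 4.15% and 14.5% of granulosa nuclei.

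NTF3, a neurotrophin that supports sympathetic and sensory neurons, was higher in pericytes than in each of the 3 classes. Its levels were 215, 134, 65.5 and 31.1 CPM in pericytes, higher in the Du'an than in the Nubian libraries. In smooth muscle it had 6.41, 8.47, 5.22 and 0.435 CPM, and in endothelium 1.24, 2.28, 2.13 and 0 CPM. The log2 fold change was 4.41 ± 0.44 (SE, edgeR adjusted p = 3.50e-04) and 6.0 ± 0.55 (adjusted p = 7.70e-06). Stromal cells held 1 UMI in all, against 113 in pericytes, a ratio of 257 with a counting interval of 45.1 to 10223 (edgeR adjusted p = 9.22e-05). NTF3 was found in 50 of the 201 nuclei and in at most 0.146% of granulosa nuclei of any library.

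TBX2, a T-box repressor of vascular mural cells, had 113, 42.6, 62.7 and 93.3 CPM in pericytes. Smooth muscle had 4.01, 9.68, 7.23 and 3.92 CPM, stromal cells 2.68, 0, 2.90 and 1.03 and endothelium 0, 1.52, 4.26 and 2.29, with no overlap between pericytes and any class. The log2 fold change was 3.71 ± 0.51 (SE) against smooth muscle (edgeR adjusted p = 0.00388), 5.34 ± 0.66 against stromal cells (adjusted p = 0.00126) and 5.01 ± 0.62 against endothelium (adjusted p = 5.48e-05). NEURL1B, a ubiquitin ligase that lets NOTCH ligands be taken up, was close in the 4 pericyte libraries at 62.2, 60.8, 66.9 and 88.1 CPM. It had 3.47, 0, 5.22 and 2.18 CPM in smooth muscle, and its log2 fold change of 4.45 ± 0.47 (SE) was the highest among genes of the naming rule in that comparison (edgeR adjusted p = 5.18e-04). ITGA1, the collagen-binding integrin chain, was called against smooth muscle and stromal cells and not against endothelium. It stood at 215, 438, 453 and 1217 CPM, against 49.4, 64.1, 110.1 and 104 in smooth muscle and 58.9, 25.5, 40.5 and 68.9 in stromal cells. Log2 fold changes were 2.70 ± 0.40 (SE, edgeR adjusted p = 0.00476) and 3.43 ± 0.43 (adjusted p = 0.00126). In endothelium, at 525, 431, 366 and 295 CPM, the log2 fold change was 0.17 ± 0.38 (adjusted p = 0.819). Calls against smooth muscle were lost with 1 library left out, by the edgeR adjusted p, for TBX2 (0.0658 without Du'an 1) and ITGA1 (0.0621 without Du'an 2).

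Of 30 pericyte genes outside the rule, 18 passed the filter on low counts. Of these, 7 were higher and none lower against smooth muscle, with a median log2 fold change of 1.60 beside -0.000693 over all genes tested. DESeq2 called 11 of the 18 there, beside 408 of all 9597 genes. Against stromal cells 10 were higher and 1 lower (median 1.59 beside 0.03), and against endothelium 12 were higher and 1 lower (median 3.20 beside -0.10). The 12 that did not pass were HIGD1B, NDUFA4L2, FOXF2, TBX18, STEAP4, PLXDC1, ITGA7, CD248, ANPEP and EBF2, with at most 56 UMIs each, and COX4I2 and CARMN, which are not named in the count tables. EGFLAM, a matrix protein that pairs with dystroglycan, was higher in all 3 comparisons. It had 413, 578, 204 and 88.1 CPM in pericytes, 86.3, 104, 94.4 and 83.1 CPM in smooth muscle, 107, 114, 91.2 and 75.1 CPM in stromal cells and 22.3, 6.83, 8.52 and 8.03 CPM in endothelium. In Nubian 2 the pericyte level was close to that of smooth muscle. Its log2 fold change was 1.59 ± 0.36 (SE, edgeR adjusted p = 0.0396) against smooth muscle, 1.54 ± 0.36 (adjusted p = 0.0389) against stromal cells and 4.58 ± 0.43 (adjusted p = 9.25e-06) against endothelium. LAMC3, a laminin chain, passed against stromal cells and endothelium (adjusted p = 0.0159 and 4.33e-06). The scaffold FRMD3, the signalling regulator RGS4, the angiotensin receptor AGTR1 and the nucleotide-sugar receptor P2RY14 passed against endothelium alone (adjusted p = 1.77e-04, 0.00129, 0.0403 and 0.00833), while CDH6 and HEY2 passed in none of the 3 comparisons. FOXC1, a forkhead factor, was the 1 gene lower than in endothelium, with 2 UMIs in all pericytes and 74 in endothelium, a ratio of 11.8 (counting interval 3.15 to 99.0, edgeR adjusted p = 0.00833). With so few UMIs in pericytes it entered the test through other classes, which fixed its direction. Leaving out 1 library, the edgeR adjusted p against smooth muscle was above 0.05 for EGFLAM (0.293 without Du'an 1, 0.14 without Du'an 2, 0.107 without Nubian 1). The same held against stromal cells for EGFLAM (0.238 without Du'an 1, 0.168 without Du'an 2, 0.101 without Nubian 1) and LAMC3 (0.174 without Du'an 1, 0.138 without Du'an 2, 0.0651 without Nubian 2). In the comparison with endothelium, the call was lost with 1 library left out for AGTR1 (0.112 without Du'an 1, 0.179 without Du'an 2, 0.196 without Nubian 1) and FOXC1 (0.0522 without Nubian 1).

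**Figure D3:**
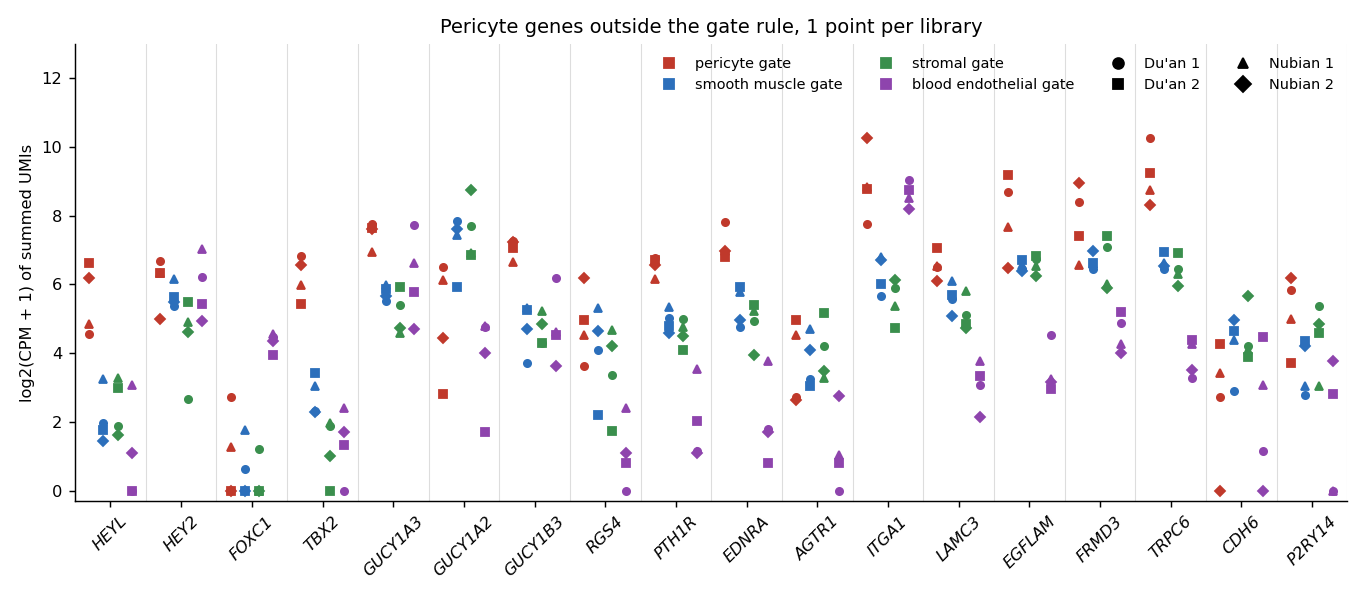
Log2(CPM + 1) of the 18 tested pericyte genes outside the rule in the 4 classes (colours) and libraries (symbols). TRPC6 and TBX2 lie above every other class in all libraries, and GUCY1A2 lies below smooth muscle and stromal cells in each.

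The NOTCH pathway has 22 genes on the list beside NOTCH3, of which 17 were tested. Its ligands come first. JAG1, which binds NOTCH receptors on the neighbouring mural cell, was present in pericytes themselves at 136, 182, 153 and 202 CPM, against 46.8, 24.2, 38.2 and 44.0 CPM in smooth muscle and 26.8, 53.3, 46.3 and 14.4 in stromal cells. Pericytes were higher in all 4 goats, with log2 fold changes of 2.10 ± 0.42 (SE, edgeR adjusted p = 0.0249) and 2.33 ± 0.45 (adjusted p = 0.0167). Endothelium held more, 552, 232, 793 and 182 CPM, with a log2 fold change of -1.38 ± 0.41 (adjusted p = 0.027), although Nubian 2 had about the same level in both classes. The endothelial ligands JAG2 and DLL4 had 1 UMI each in all pericytes against 342 and 144 in endothelium, ratios of 109 (counting interval 19.4 to 4311) and 45.8 (8.09 to 1822). Calls against smooth muscle that were lost with 1 library left out, with the edgeR adjusted p without it, were those of JAG1 (0.138 without Du'an 1, 0.0826 without Du'an 2, 0.0602 without Nubian 1). Against stromal cells the same held for JAG1 (0.153 without Du'an 1, 0.0632 without Du'an 2, 0.0696 without Nubian 2). The same held against endothelium for JAG1 (0.18 without Du'an 1, 0.22 without Nubian 1).

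NOTCH2 was at 617, 438, 705 and 477 CPM in pericytes and 117, 106, 166 and 108 in endothelium, a log2 fold change of 2.01 ± 0.21 (SE, edgeR adjusted p = 1.60e-05), and against smooth muscle 0.03 ± 0.20 (adjusted p = 0.985). NOTCH1 was lower than in endothelium by a log2 fold change of -1.5 ± 0.39 (adjusted p = 0.0147), and NOTCH4 had 3 UMIs against 171, a ratio of 18.1 (counting interval 6.10 to 88.8). Among targets, HEYL, a repressor switched on by NOTCH3 in mural cells, was at 22.6, 97.3, 27.9 and 72.5 CPM, with 4, 16, 20 and 14 UMIs. The other classes had at most 8.69 CPM in any library, and the log2 fold change was 3.71 ± 0.72 against smooth muscle (SE, edgeR adjusted p = 0.0231), 3.48 ± 0.79 against stromal cells (adjusted p = 0.0351) and 4.67 ± 0.85 against endothelium (adjusted p = 0.00123). HEY1, the target used by endothelium, had 1 UMI in pericytes and 108 in endothelium, a ratio of 34.4 (counting interval 6.04 to 1370). HEY2, at 102, 79.0, 79.5 and 31.1 CPM, passed no test. RBPJ, the DNA-binding partner of NOTCH, was lower than in stromal cells, where the log2 difference came to -0.95 ± 0.22 by edgeR (adjusted p = 0.0389). In all, 2 of the 17 were higher and none lower against smooth muscle, 2 higher and 1 lower against stromal cells, and 2 higher and 8 lower against endothelium, where 9.49% of all genes were higher and 10% lower. The medians of the list were 0.03, 0.20 and -1.11 on the log2 scale, beside -0.000693, 0.03 and -0.10 over all genes tested. JAG2, DLL4, HEY1, NOTCH4 and MFNG had 1, 1, 1, 3 and 0 UMIs in pericytes against 342, 144, 108, 171 and 68 in endothelium. Such genes entered the test through classes other than pericytes, which fixed their direction. The 8 lower genes and the median of -1.11 are therefore given as a description of the list. The edgeR adjusted p against smooth muscle went past 0.05 with 1 library left out for HEYL (0.132 without Du'an 1, 0.0986 without Du'an 2, 0.127 without Nubian 2). In the comparison with stromal cells, the call was lost with 1 library left out for HEYL (0.183 without Du'an 1, 0.148 without Du'an 2, 0.208 without Nubian 2) and RBPJ (0.238 without Du'an 1, 0.144 without Du'an 2, 0.0544 without Nubian 1, 0.154 without Nubian 2). Against endothelium the same held for NOTCH1 (0.0941 without Du'an 2, 0.0737 without Nubian 1).

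**Figure D4:**
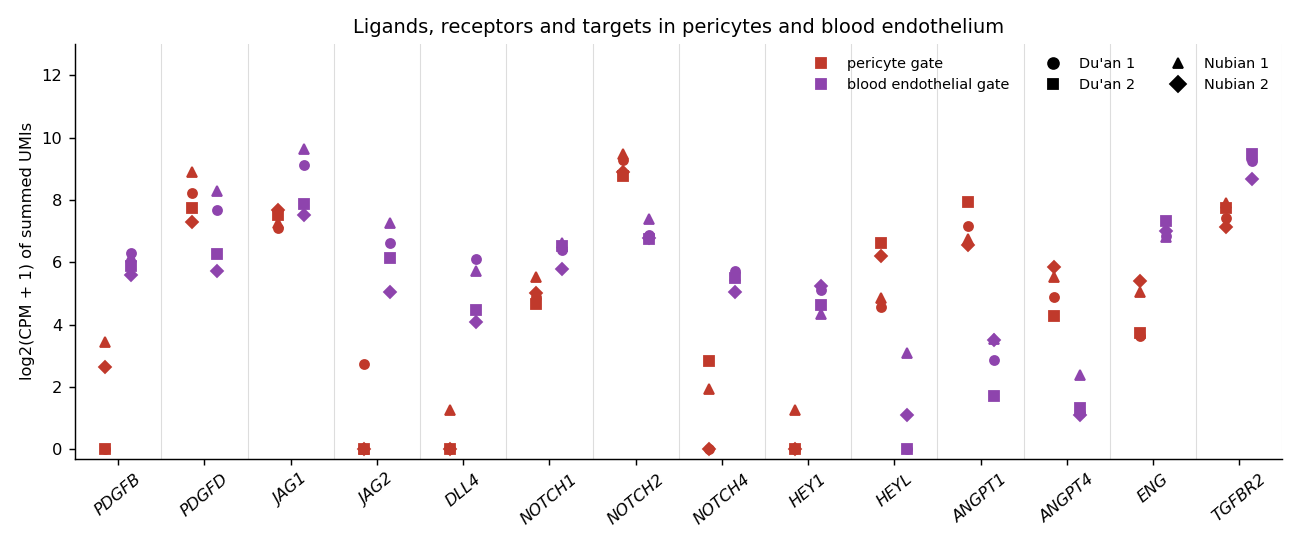
Log2(CPM + 1) of ligands, receptors and targets in pericytes (red) and blood endothelium (purple), 1 point per library. PDGFB, JAG2, DLL4, NOTCH4 and HEY1 lie in endothelium, whereas HEYL, ANGPT1, ANGPT4 and NOTCH2 lie higher in pericytes in every library. The ANGPT4 value of pericytes in Nubian 2 came from 1 nucleus.

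Ligands that pass between pericytes and endothelium divided between the classes. PDGFB, the endothelial ligand of PDGFRB, had 0, 0, 9.76 and 5.18 CPM in pericytes and 78.1, 57.7, 71.4 and 47.0 in endothelium, with no overlap (log2 fold change -3.84 ± 0.62, SE, edgeR adjusted p = 4.69e-04). PDGFD, another ligand of PDGFRB, was higher than in endothelium, at 294, 213, 474 and 155 against 203, 75.9, 313 and 51.6 CPM (log2 fold change 0.83 ± 0.23, adjusted p = 0.0183). PDGFC was lower than in stromal cells (log2 fold change -1.12 ± 0.26, adjusted p = 0.0385). ANGPT1, the ligand of endothelial TEK, was at 141, 243, 106 and 93.3 CPM in pericytes, 24.3, 33.9, 26.5 and 12.2 in smooth muscle and 6.20, 2.28, 10.7 and 10.3 in endothelium. Its log2 fold change was 2.59 ± 0.54 (SE, edgeR adjusted p = 0.0329) and 4.16 ± 0.64 (adjusted p = 3.49e-04), and against stromal cells 1.84 ± 0.56 (adjusted p = 0.111). ANGPT4, a second agonist of that receptor, was higher than in endothelium, at 28.3, 18.2, 44.6 and 57.0 against 1.24, 1.52, 4.26 and 1.15 CPM (log2 fold change 3.97 ± 0.50, adjusted p = 6.77e-05). In Nubian 2, 1 nucleus of 34947 UMIs gave each of the 11 UMIs of ANGPT4 and 76.7% of the 30 UMIs of PDGFD. S1PR1, a sphingosine receptor of endothelium, was lower (-4.07 ± 0.61, adjusted p = 2.57e-04). PDGFB and S1PR1 had 8 and 19 UMIs in all pericytes and entered the test through other classes, which fixed their direction. Calls against smooth muscle were lost with 1 library left out, by the edgeR adjusted p, for ANGPT1 (0.257 without Du'an 1, 0.0704 without Nubian 1, 0.0827 without Nubian 2). The same held against stromal cells for PDGFC (0.235 without Du'an 1, 0.15 without Du'an 2, 0.086 without Nubian 1, 0.0759 without Nubian 2). In the comparison with endothelium, the call was lost with 1 library left out for PDGFD (0.126 without Du'an 2, 0.0669 without Nubian 1).

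Signals of the TGF-beta family were tested for 30 genes. Against smooth muscle 1 was higher and none lower, against stromal cells edgeR called none (9 at an unadjusted p under 0.05, and 3 called by DESeq2), and against endothelium 5 were higher and 13 lower, with a median log2 fold change of -0.97 beside -0.10 over all genes. Of all 9597 genes, 1528 had such a p against stromal cells and DESeq2 called 462. Against smooth muscle 10 of the 30 had such a p and DESeq2 called 4, beside 1339 and 408 of all genes. TGFBR2, the receptor that binds TGF-beta, was the gene higher than in smooth muscle, at 169.7, 213, 239.8 and 139.9 against 63.3, 90.7, 93.6 and 55.7 CPM (log2 fold change 1.31 ± 0.21, SE, edgeR adjusted p = 0.00682). Endothelium had more of it, 600.2, 705, 678 and 402 CPM (log2 fold change -1.82 ± 0.21, adjusted p = 2.94e-05). The BMP receptor BMPR1A was higher than in endothelium, 583, 371, 524 and 363 against 84.3, 49.4, 132 and 29.8 CPM (log2 fold change 2.58 ± 0.24, adjusted p = 7.70e-06). BMPR1B and TGFB3 were higher as well (adjusted p = 0.00238 and 6.04e-04), while the endothelial receptors ENG and ACVRL1 (0.00161 and 0.00848) and the BMP targets ID1 and ID2 (0.0102 and 0.00237) were lower. A single nucleus gave 90.9% of the 11 UMIs of TGFB3 in Nubian 2. ACVRL1 and ID1 had 16 and 8 UMIs in all pericytes and entered the test through other classes, which fixed their direction. The 13 lower genes and the median of -0.97 are therefore given as a description of the list. Calls against smooth muscle that were lost with 1 library left out, with the edgeR adjusted p without it, were those of TGFBR2 (0.124 without Du'an 1, 0.065 without Du'an 2). Against endothelium the same held for ACVRL1 (0.065 without Du'an 1, 0.0656 without Du'an 2) and ID1 (0.071 without Du'an 2, 0.0512 without Nubian 1).

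Cyclic GMP relaxes mural cells. PRKG1, the kinase that cyclic GMP activates, was at 6856, 4857, 3998 and 5315 CPM in pericytes and was seen in 192 of the 201 nuclei, and in 22.8% to 49.4% of granulosa nuclei. It had 1037, 1276, 1944 and 1228 CPM in smooth muscle, 1351, 1532, 2951 and 1702 in stromal cells and 451, 242, 398 and 123 in endothelium, so that pericytes were highest in every goat. The log2 fold change was 1.98 ± 0.32 (SE, edgeR adjusted p = 0.00796), 1.52 ± 0.32 (adjusted p = 0.0239) and 4.09 ± 0.35 (adjusted p = 4.33e-06). Soluble guanylate cyclase, the nitric oxide sensor upstream of it, is a dimer. Its beta subunit GUCY1B1 (listed as GUCY1B3) was at 153, 134, 99.0 and 150.2 CPM against 12, 37.5, 39.0 and 24.8 in smooth muscle and 18.7, 18.5, 36.2 and 27.8 in stromal cells (log2 fold change 2.23 ± 0.49, SE, edgeR adjusted p = 0.0378, and 2.32 ± 0.51, adjusted p = 0.0308). The alpha subunit GUCY1A1 (listed as GUCY1A3) had 215, 201, 123 and 197 CPM and passed against stromal cells (log2 fold change 2.31 ± 0.45, adjusted p = 0.0177) but not against smooth muscle (1.71 ± 0.42, adjusted p = 0.0574). The other alpha subunit, GUCY1A2, went the opposite way, with 90.5, 6.08, 69.7 and 20.7 CPM in pericytes and 207, 116, 120.2 and 434 in stromal cells (log2 fold change -2.28 ± 0.48, adjusted p = 0.0239). PDE3A, a phosphodiesterase that cyclic GMP inhibits, was higher than in smooth muscle in every goat, 2404, 1471, 1373 and 1306 against 147, 157, 264 and 378 CPM (log2 fold change 2.76 ± 0.42, adjusted p = 0.00528). Of 18 cyclic nucleotide genes tested, 3 were higher and none lower against smooth muscle, 5 and 1 against stromal cells, and 8 and 3 against endothelium, with median log2 fold changes of 0.44, 0.38 and 1.30 beside -0.000693, 0.03 and -0.10 over all genes. Against smooth muscle 11 had an unadjusted p under 0.05 and DESeq2 called 8, beside 1339 and 408 of all 9597 genes. Leaving out 1 library, the edgeR adjusted p against smooth muscle was above 0.05 for PRKG1 (0.106 without Du'an 1, 0.0732 without Du'an 2), GUCY1B3 (0.106 without Du'an 1, 0.11 without Du'an 2, 0.0724 without Nubian 1, 0.135 without Nubian 2) and PDE3A (0.106 without Du'an 1, 0.0658 without Du'an 2). The same held against stromal cells for PRKG1 (0.184 without Du'an 1, 0.159 without Du'an 2, 0.0759 without Nubian 2), GUCY1B3 (0.0588 without Du'an 1, 0.155 without Du'an 2, 0.0563 without Nubian 1, 0.117 without Nubian 2), GUCY1A3 (0.105 without Du'an 1, 0.0928 without Du'an 2, 0.0606 without Nubian 1, 0.0651 without Nubian 2) and GUCY1A2 (0.126 without Du'an 1, 0.127 without Du'an 2, 0.147 without Nubian 2).

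Receptors for vasoactive hormones on the list number 26, and 9 were tested. Against smooth muscle 2 were higher (median log2 fold change 0.87 beside -0.000693), against stromal cells 3 (1.38 beside 0.03), and none was lower. EDNRA, the endothelin receptor of contractile cells, had 226, 109, 125 and 124 CPM in pericytes against 29.4, 41.7, 36.2 and 14.4 in stromal cells (log2 fold change 2.31 ± 0.46, SE, edgeR adjusted p = 0.0196) and 2.48, 0.759, 12.8 and 2.29 in endothelium (4.98 ± 0.56, adjusted p = 2.77e-05). PTH1R, the parathyroid hormone receptor, was even across the libraries at 107, 103, 71.1 and 93.3 CPM and higher in each comparison (log2 fold change 1.61 ± 0.36, adjusted p = 0.0396, then 1.92 ± 0.39, 0.0201, and 4.37 ± 0.46, 1.74e-05). CALCRL, the receptor subunit for adrenomedullin and calcitonin gene-related peptide, was at 283, 103, 138 and 269 CPM, above smooth muscle at 43.8, 33.9, 73.9 and 36.1 (log2 fold change 2.14 ± 0.38, adjusted p = 0.0129) and below endothelium at 750.3, 752, 1700.3 and 407 (-2.18 ± 0.37, adjusted p = 7.91e-04). The alpha-1A adrenergic receptor ADRA1A, at 33.9, 139.8, 39.0 and 36.3 CPM, passed only against endothelium (5.61 ± 0.75, adjusted p = 1.06e-04). The edgeR adjusted p against smooth muscle went past 0.05 with 1 library left out for PTH1R (0.255 without Du'an 1, 0.159 without Du'an 2, 0.145 without Nubian 2) and CALCRL (0.184 without Du'an 1, 0.0663 without Du'an 2, 0.0606 without Nubian 2). In the comparison with stromal cells, the call was lost with 1 library left out for EDNRA (0.184 without Du'an 1, 0.0533 without Du'an 2, 0.106 without Nubian 2) and PTH1R (0.143 without Du'an 1, 0.15 without Du'an 2, 0.0825 without Nubian 2).

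**Figure D5:**
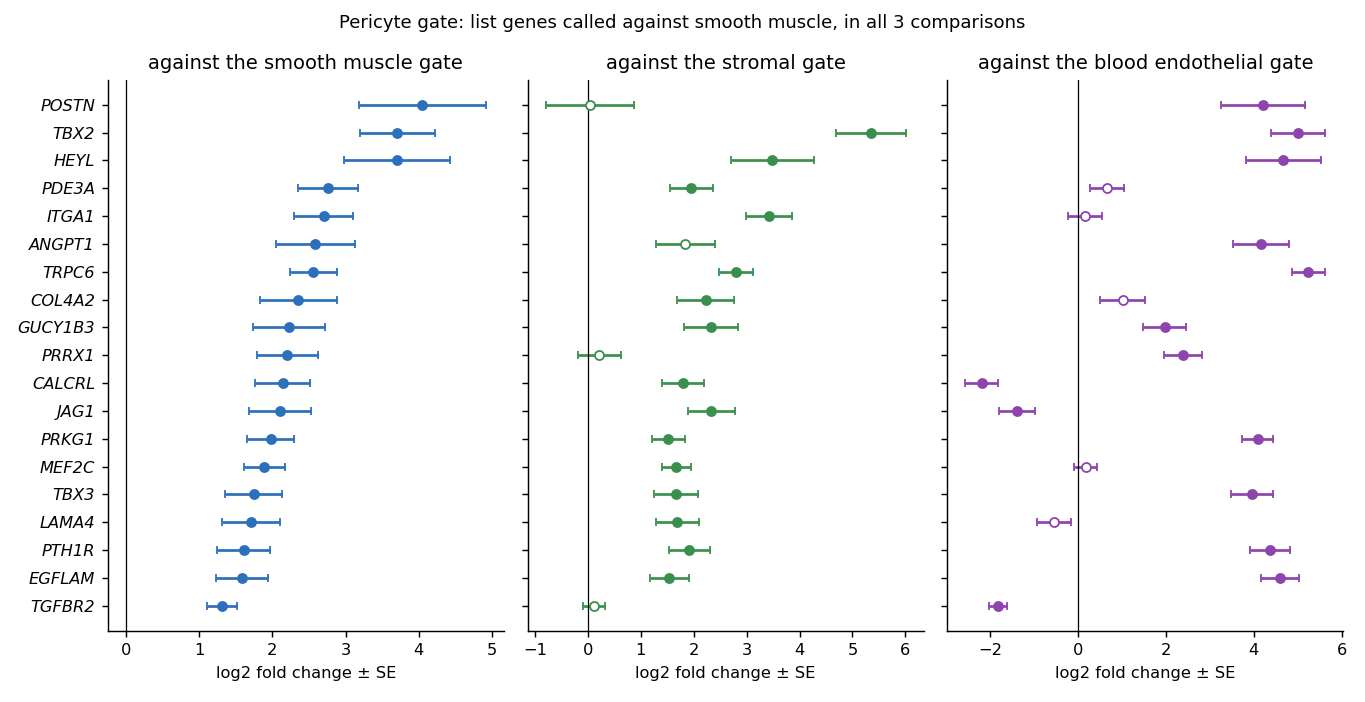
Log2 fold change of pericytes against each of 3 classes, with the standard error, for the 19 list genes called against smooth muscle. Filled points passed an edgeR adjusted p of 0.05; TGFBR2, JAG1 and CALCRL are higher than in smooth muscle and lower than in endothelium.

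Genes of ion channels and calcium pumps were mostly higher than in endothelium. Of 19 tested, 15 were higher and 1 lower than in endothelium (median log2 fold change 2.69 beside -0.10), 4 were higher than in stromal cells, and by edgeR TRPC6 was the 1 gene higher than in smooth muscle (8 had an unadjusted p under 0.05, and DESeq2 called 3). Of all 9597 genes, 1339 had such a p against smooth muscle and DESeq2 called 408. RYR2, the calcium release channel of the endoplasmic reticulum, was at 1765, 1708, 595 and 1005 CPM against 242, 417, 145 and 187 in stromal cells (log2 fold change 2.36 ± 0.29, SE, edgeR adjusted p = 0.00126) and 80.6, 155, 105 and 47.0 in endothelium (3.57 ± 0.31, adjusted p = 4.33e-06). CACNA1C, the pore of the L-type calcium channel, had 973, 875, 1124 and 653 CPM against 40.9, 24.3, 222 and 8.03 in endothelium (4.16 ± 0.51, adjusted p = 5.61e-05).

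Contractile genes outside the gates were called against stromal cells and endothelium and not against smooth muscle. Of 29 tested, edgeR called none against smooth muscle, with 8 at an unadjusted p under 0.05 and 3 called by DESeq2 (median log2 fold change 0.32 beside -0.000693), while 8 were higher and none lower against stromal cells (0.80 beside 0.03), and 13 were higher and 2 lower against endothelium (0.79 beside -0.10). Over all 9597 genes, 1339 had such a p against smooth muscle and DESeq2 called 408. Against stromal cells 19 of the 29 had such a p and DESeq2 called 13, beside 1528 and 462 of all genes. MYLK, the kinase that activates smooth muscle myosin, had 549, 438, 389 and 725 CPM in pericytes, 425, 489, 793 and 305 in smooth muscle, 217, 141, 262 and 118 in stromal cells and 138, 162, 114 and 64.3 in endothelium. Pericyte and smooth muscle levels overlapped. The log2 fold change was 0.14 ± 0.34 (SE) against smooth muscle (edgeR adjusted p = 0.922), 1.57 ± 0.35 against stromal cells (adjusted p = 0.0319) and 2.05 ± 0.35 against endothelium (adjusted p = 7.57e-04). CALD1, a regulator of actin filaments, was higher than in stromal cells (1.12 ± 0.27, adjusted p = 0.0417) and endothelium (1.86 ± 0.27, adjusted p = 2.10e-04). MYL9, the myosin light chain, had 45.3, 42.6, 51.6 and 342 CPM, where 1 nucleus gave 97.0% of the 66 UMIs of Nubian 2. Its log2 fold change was 3.55 ± 0.74 against stromal cells (adjusted p = 0.0231), and 2.03 (adjusted p = 0.107) without that nucleus, where CALD1 had 1.03 (adjusted p = 0.0553). Calls against stromal cells that were lost with 1 library left out, with the edgeR adjusted p without it, were those of MYLK (0.193 without Du'an 1, 0.144 without Du'an 2, 0.135 without Nubian 2), CALD1 (0.281 without Du'an 1, 0.155 without Du'an 2, 0.086 without Nubian 1, 0.155 without Nubian 2) and MYL9 (0.184 without Du'an 1, 0.0928 without Du'an 2, 0.12 without Nubian 2).

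Basement membrane genes were tested for 19 of the 22 on the list. Of these, 2 were higher than in smooth muscle (median log2 fold change 1.08 beside -0.000693), 5 than in stromal cells (0.92 beside 0.03) and 10 than in endothelium (1.16 beside -0.10), where 1, the synapse and vessel proteoglycan AGRN, was lower. AGRN had 10 UMIs in all pericytes and entered the test through other classes, which fixed its direction. Against smooth muscle 12 had an unadjusted p under 0.05 and DESeq2 called 10, beside 1339 and 408 of all 9597 genes. COL4A2, a chain of the main vascular collagen IV, had 345, 456, 438 and 1513 CPM against 107, 115, 210.1 and 114 in smooth muscle and 91.0, 139, 298 and 90.5 in stromal cells. Pericytes were higher in all 4 goats (log2 fold change 2.35 ± 0.52, SE, edgeR adjusted p = 0.0393, and 2.22 ± 0.54, adjusted p = 0.044). Against endothelium, at 339.8, 415, 359 and 109 CPM, it was 1.01 ± 0.52 (adjusted p = 0.2). COL4A1, its partner chain, passed against stromal cells (2.26 ± 0.48, adjusted p = 0.0249). LAMA4, the laminin chain of vessel walls, was at 317, 109, 169 and 337 CPM against 60.1, 65.3, 131 and 43.1 in smooth muscle (log2 fold change 1.7 ± 0.40, adjusted p = 0.0463) and 77.6, 71.9, 113 and 38.0 in stromal cells (1.69 ± 0.40, adjusted p = 0.0431). NID1, which links laminin to collagen IV, was higher than in endothelium (2.90 ± 0.38, adjusted p = 9.15e-05). Leaving out 1 library, the edgeR adjusted p against smooth muscle was above 0.05 for COL4A2 (0.201 without Du'an 1, 0.125 without Du'an 2) and LAMA4 (0.369 without Du'an 1, 0.0943 without Du'an 2, 0.178 without Nubian 2). Against stromal cells the same held for COL4A2 (0.218 without Du'an 1, 0.157 without Du'an 2, 0.0832 without Nubian 2), COL4A1 (0.125 without Du'an 1, 0.126 without Du'an 2) and LAMA4 (0.263 without Du'an 1, 0.121 without Du'an 2, 0.225 without Nubian 2).

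Fibrillar matrix genes were mostly higher than in endothelium. Of 18 tested, 11 were higher and 1 lower than in endothelium (median log2 fold change 2.29 beside -0.10), 1 was higher than in stromal cells (ELN, elastin, 2.71 ± 0.64, edgeR adjusted p = 0.0404) and 1 than in smooth muscle by edgeR (POSTN, median of the list 2.21 beside -0.000693), where 14 had an unadjusted p under 0.05 and DESeq2 called 10. Over all 9597 genes, 1339 had such a p against smooth muscle and DESeq2 called 408. In Nubian 2, the nucleus that held POSTN gave 93.9% of the 33 UMIs of ELN and 87.5% of the 680 UMIs of COL1A2, and in Du'an 1 a nucleus gave 75.4% of the 358 UMIs of COL1A2. Without that nucleus of Nubian 2 the log2 fold change was 1.55 (adjusted p = 0.0536) for ELN against stromal cells and 4.30 (adjusted p = 2.16e-04) for COL1A2 against endothelium. COL1A2, a chain of collagen I, had 2025, 377, 1128 and 3523 CPM in pericytes and 33.5, 15.2, 180.0 and 21.8 in endothelium (log2 fold change 5.23 ± 0.80, SE, adjusted p = 3.30e-04). The stromal level was 233, 670.0, 956 and 209.8 CPM, and the log2 fold change 2.00 ± 0.73 (adjusted p = 0.183). POSTN had 11.3, 18.2, 36.2 and 471 CPM, of which the value of Nubian 2 came from 1 nucleus, and 1.34, 13.3, 6.03 and 4.79 in smooth muscle (log2 fold change 4.05 ± 0.86, adjusted p = 0.0339, and 1.79, adjusted p = 0.162, without that nucleus). Among cell contact genes, ITGA8, an integrin chain of mural cells, was higher than in stromal cells (2.64 ± 0.62, adjusted p = 0.0389). The endothelial connexins GJA4 and GJA5, with 4 and 10 UMIs in all pericytes, were lower than in endothelium (-3.86 ± 0.95, adjusted p = 0.00963, and -5.42 ± 0.72, adjusted p = 2.86e-04). They entered the test through other classes, which fixed their direction, so the count of lower contact genes below is a description. CDH2, the cadherin of contacts between pericytes and endothelium, was higher than in endothelium (1.48 ± 0.35, adjusted p = 0.00784). A single nucleus gave 77.8% of the 167 UMIs of CDH2 in Du'an 1, and its direction reversed where both NOTCH3 and RGS5 were required. Of 18 contact genes, 1 was higher than in smooth muscle (median log2 fold change 0.39 beside -0.000693), 2 than in stromal cells (0.50 beside 0.03), and 7 were higher and 5 lower than in endothelium (0.74 beside -0.10). DESeq2 called 3 of them against smooth muscle and 4 against stromal cells, beside 408 and 462 of all genes. The edgeR adjusted p against smooth muscle went past 0.05 with 1 library left out for POSTN (0.183 without Du'an 1, 0.065 without Du'an 2, 0.0655 without Nubian 1, 0.0973 without Nubian 2). The same held against stromal cells for ELN (0.156 without Du'an 1, 0.138 without Du'an 2, 0.0653 without Nubian 1, 0.157 without Nubian 2) and ITGA8 (0.198 without Du'an 1, 0.144 without Du'an 2, 0.17 without Nubian 2). In the comparison with endothelium, the call was lost with 1 library left out for GJA4 (0.116 without Nubian 1) and CDH2 (0.0867 without Du'an 2).

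Transcription factors of vessels were tested for 17 genes, of which 4 were higher than in smooth muscle and 3 than in stromal cells, with none lower, and 3 were higher and 6 lower than in endothelium. Their median log2 fold changes were 0.63, 0.22 and 0.20, beside -0.000693, 0.03 and -0.10 over all genes. TBX3, a close relative of TBX2, was at 90.5, 134, 66.9 and 124 CPM against 19.5, 35.1, 47.4 and 23.5 in smooth muscle (log2 fold change 1.75 ± 0.39, SE, edgeR adjusted p = 0.0396), 29.4, 20.9, 55.0 and 22.6 in stromal cells (1.66 ± 0.41, adjusted p = 0.0491) and 1.24, 6.07, 9.59 and 6.89 in endothelium (3.96 ± 0.47, adjusted p = 4.33e-05). MEF2C, a factor of muscle and endothelium, had 843, 456, 418 and 559.5 CPM, higher than in smooth muscle (1.89 ± 0.28, adjusted p = 0.00462) and stromal cells (1.67 ± 0.28, adjusted p = 0.00891), with 0.18 ± 0.27 against endothelium (adjusted p = 0.71). PRRX1, a mesenchymal factor, was higher than in smooth muscle (2.20 ± 0.42, adjusted p = 0.0192) and had 0.22 ± 0.40 against stromal cells (adjusted p = 0.852). SOX17, an arterial endothelial factor, had no UMI in pericytes and was at least 14.8-fold lower than in endothelium, taking 3 UMIs over all pericytes as the limit. SOX17, SOX18 and FOXC1 had 0, 2 and 2 UMIs in pericytes against 140, 214 and 74 in endothelium. They entered the test through classes other than pericytes, which fixed their direction, so the count of 6 lower genes is a description. Calls against smooth muscle were lost with 1 library left out, by the edgeR adjusted p, for TBX3 (0.257 without Du'an 1, 0.146 without Du'an 2, 0.172 without Nubian 2), MEF2C (0.106 without Du'an 1) and PRRX1 (0.18 without Du'an 1, 0.0781 without Du'an 2, 0.051 without Nubian 1). Against stromal cells the same held for TBX3 (0.198 without Du'an 1, 0.225 without Du'an 2, 0.265 without Nubian 2) and MEF2C (0.108 without Du'an 1, 0.0928 without Du'an 2).

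Hormone receptors of the ovary were called against endothelium alone. Of 12 tested, edgeR and DESeq2 called none against smooth muscle (5 at an unadjusted edgeR p under 0.05) or stromal cells (0 at that p), and 7 were higher and 1 lower than in endothelium (median log2 fold change 1.24 beside -0.10). Over all 9597 genes, 1339 and 1528 had such an unadjusted p against smooth muscle and stromal cells. The estrogen receptor ESR1 had 294, 359, 318 and 161 CPM in pericytes against 88.1, 148, 105 and 35.6 in endothelium (log2 fold change 1.47 ± 0.28, SE, edgeR adjusted p = 0.00174). The relaxin receptor RXFP1, at 22.6, 48.6, 47.4 and 0 CPM, was higher too (2.45 ± 0.63, adjusted p = 0.013). NR3C2, the mineralocorticoid receptor, was lower (-1.96 ± 0.47, adjusted p = 0.00803). ESR2 (3.24 ± 0.72, adjusted p = 0.00488) and LHCGR (2.64 ± 0.70, adjusted p = 0.0154) were higher, and granulosa or theca cells use both, as they do CYP19A1, the aromatase. In Du'an 1, 1 nucleus gave each of the 39 UMIs of LHCGR, and another gave 92.9% of the 14 UMIs of ESR2. Of 10 granulosa markers tested, 5 were likewise higher than in endothelium (median log2 fold change 1.64 beside -0.10), while edgeR and DESeq2 called none against smooth muscle or stromal cells, with 1 and 3 at an unadjusted edgeR p under 0.05. The part of granulosa transcripts in the hormone receptor values was not tested. Calls against endothelium that were lost with 1 library left out, with the edgeR adjusted p without it, were those of RXFP1 (0.0818 without Du'an 1, 0.0927 without Du'an 2), NR3C2 (0.077 without Nubian 1), ESR2 (0.0602 without Du'an 1) and LHCGR (0.077 without Du'an 2).

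Other genes were named by a rule of size, as the called genes with the largest changes shared by all 4 goats. Higher than in smooth muscle were, beside NEURL1B, NTF3, POSTN, TBX2 and HEYL, the membrane protein PEAR1 at 39.6, 73.0, 55.8 and 72.5 CPM against 5.08, 7.26, 13.7 and 4.79 (log2 fold change 2.98 ± 0.46, SE, edgeR adjusted p = 0.00608), ART4, the matrix protein ECM2, the kinase FRK and FSTL4. Of the 58 UMIs of ECM2 in Nubian 2, 57 came from the nucleus that held POSTN, so its higher level in that goat rests on this nucleus. ECM2 was still called without it. FRK, at 158, 85.1, 37.6 and 31.1 CPM, was also among the leading genes against stromal cells (3.75 ± 0.73, adjusted p = 0.0172) and endothelium (5.58 ± 0.84, adjusted p = 2.75e-04). Lower than in smooth muscle were RUNX2, the bone and cartilage factor, at 1522, 116, 850.4 and 238 against 4981, 2561, 1869 and 1861 CPM (-2.44 ± 0.53, adjusted p = 0.0354), the WNT effector LEF1 (-2.72 ± 0.58, adjusted p = 0.0339), the receptor ERBB4 (-2.41 ± 0.56, adjusted p = 0.048), the presynaptic scaffolds RIMS1 and PCLO, ELMO1, FGF14, CSMD1, FAM163A and RNF182. RUNX2 was lower than in stromal cells as well (-3.14 ± 0.54, adjusted p = 0.0111). Leaving out 1 library, the edgeR adjusted p against smooth muscle was above 0.05 for PEAR1 (0.106 without Du'an 1, 0.065 without Du'an 2), RUNX2 (0.138 without Du'an 1, 0.151 without Du'an 2, 0.0973 without Nubian 2), LEF1 (0.276 without Du'an 1, 0.0781 without Du'an 2, 0.0803 without Nubian 2) and ERBB4 (0.229 without Du'an 1, 0.116 without Du'an 2, 0.0925 without Nubian 1, 0.0774 without Nubian 2). The same held against stromal cells for FRK (0.171 without Du'an 1, 0.0928 without Du'an 2) and RUNX2 (0.0777 without Du'an 1, 0.0899 without Du'an 2, 0.0537 without Nubian 2).

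Against stromal cells, AKAP6, an anchor of protein kinase A, stood at 809, 383, 83.6 and 67.3 CPM in pericytes and 0, 0, 11.6 and 7.20 CPM (log2 fold change 5.51 ± 0.89, SE, edgeR adjusted p = 0.00738), and CA10 and FRMD5 were higher as well (3.70 ± 0.40, adjusted p = 6.39e-04, and 3.42 ± 0.72, adjusted p = 0.0239). CA10, at 96.2, 881, 118 and 197 CPM, was higher in all 4 goats, and Du'an 2 had the highest level. In Du'an 1, 1 nucleus gave 94.7% of the 75 UMIs of RIMS2. RIMS2 was lower in each goat, although the classes overlapped between goats, at 424, 109, 137 and 77.7 against 2389, 1917, 408 and 1408 CPM (-3.18 ± 0.41, adjusted p = 0.00165), as were ENPP1, an enzyme that makes the calcification inhibitor pyrophosphate (-2.78 ± 0.57, adjusted p = 0.0217), ADAMTS6, MUSK, SLCO2A1, SMOC1, MME and BCL11A. Against endothelium the organic cation transporter SLC22A3 was higher, with 351, 456, 159 and 51.8 against 7.44, 1.52, 11.7 and 2.29 CPM (5.54 ± 0.92, adjusted p = 6.29e-04), as were GPR63 (5.41 ± 0.52, adjusted p = 9.59e-06), NR1H4, WFDC1 and OGN. The last 2 had 96.6% and 97.3% of their UMIs in Nubian 2 from the nucleus that held POSTN, and without it their log2 fold changes were 3.96 (adjusted p = 4.10e-04) and 3.04 (adjusted p = 0.0125). Endothelial genes marked the other side, with MECOM at 17.0, 48.6, 50.2 and 0 against 5214, 2915, 5486 and 1882 CPM (-7.01 ± 0.88, adjusted p = 6.77e-05) and MYRIP at -7.69 ± 0.52 (adjusted p = 1.66e-06). BMX had 2 UMIs against 1103, a ratio of 175 (counting interval 48.5 to 1451), and GATA2 and LPCAT2 had none, which makes them at least 23-fold and 29.9-fold lower. TRPM6, MYCT1, SEMA3G and CALN1 had 1 or 2 UMIs, with ratios of 158, 91.8, 74.5 and 74.0. Genes with so few UMIs in pericytes entered the test through other classes, which fixed their direction. The same holds for MYRIP with 4 UMIs and, against stromal cells, for MUSK with 6 and SLCO2A1 with 5. The edgeR adjusted p against stromal cells went past 0.05 with 1 library left out for AKAP6 (0.108 without Du'an 1, 0.0928 without Du'an 2), FRMD5 (0.125 without Du'an 1, 0.125 without Du'an 2, 0.0651 without Nubian 2) and ENPP1 (0.199 without Du'an 1, 0.102 without Du'an 2).

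The breeds were compared in the share and in the expression of pericytes. Pericytes made up 0.363%, 0.248%, 0.718% and 0.162% of nuclei, with exact binomial intervals of 0.252 to 0.507, 0.163 to 0.360, 0.597 to 0.857 and 0.0962 to 0.256%, which cover counting error only. The highest and the lowest share both belonged to Nubian goats. The means were 0.440% in Nubian and 0.305% in Du'an goats, a difference of 0.135 percentage points (exact permutation test, two-sided, p = 1, where the smallest p that 2 against 2 goats allow is 0.33). Among the 6785, 9573, 13629 and 7953 nuclei with at least 1000 UMIs the shares were 0.442%, 0.282%, 0.851% and 0.189%. With each of these thinned to 1000 UMIs they were 0.133%, 0.115%, 0.198% and 0.0377%, and the difference was -0.00586. For all nuclei, without thinning, the difference was -0.143 when Nubian 1 was left out. Without nuclei holding other cell types' transcripts the shares were 0.235%, 0.0734%, 0.124% and 0.108%, so that the highest and the lowest were then those of Du'an goats.

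In the edgeR test of breed in pericytes 0 of 3978 genes were called (0%), with 252 at an unadjusted p under 0.05, while DESeq2 called 90. On counts simulated with the library sizes and spread of these data, the edgeR test recovered 0% of genes with a log2 fold change of 2. Of those with a log2 fold change of 3 it recovered 7.69%, so the absence of calls does not show that the breeds were alike. Without Nubian 1, where a lone Nubian library is assumed to vary like the Du'an ones, 544 were called, so the number of calls depended on that library. The goats of the breeds did not overlap for 1383 genes (34.8%), 543 of them higher (13.7%) and 840 lower (21.1%) in Nubian goats. The balance of calls was the reverse: DESeq2 called 87 higher and 3 lower in Nubian goats, and edgeR without the filter on low counts 223 and 18. No gene met the naming rule, so the genes that follow were chosen after their values were seen. LUM, a matrix proteoglycan of fibroblasts, had 17.0, 6.08, 217 and 311 CPM (log2 fold change 4.66 ± 0.69, SE, edgeR adjusted p = 0.690). MGP, an inhibitor of calcification, had 62.2, 109, 506 and 658 CPM (2.97 ± 0.55, adjusted p = 0.690), and RPL35, a ribosomal protein, 11.3, 18.2, 197 and 275 CPM (4.17 ± 0.62, adjusted p = 0.690). In Nubian 2, the nucleus that held POSTN gave 93.3% of the 60 UMIs of LUM and 91.3% of the 127 UMIs of MGP. AKAP6 did not pass either, with 809, 383, 83.6 and 67.3 CPM (-2.80 ± 0.53, adjusted p = 0.690). NTF3 (215, 134, 65.5 and 31.1 CPM, -1.65 ± 0.51, adjusted p = 0.690) and TRPC6 (-1.12 ± 0.50, adjusted p = 0.883) did not pass the test, with both Nubian values below both Du'an values. By edgeR no gene of any list was called by breed, while DESeq2 called 3 of 14 fibrillar matrix genes tested, 2 of 8 stromal markers and 1 of 16 basement membrane genes, where edgeR had 6, 3 and 2 at an unadjusted p under 0.05.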

How the data were processed

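Single-nucleus libraries of 4 goat ovaries (10x 3′ kit) were deposited as filtered matrices of UMI counts per gene and nucleus. The authors made these counts with Cell Ranger 5.0.0 according to the submitters' processing notes, while the matrix headers name version 3.1.0. The study's methods cite the reference genome by a web page, and the name of the assembly was not given in the sources used here. The files named 28944 genes, each of the 48332 nuclei held at least 500 UMIs, and libraries summed to 40573246, 60566681, 71613892 and 52783453 UMIs. No doublet caller was run, and nuclei with transcripts of other cell types were kept, then left out as an alternative. Counts were summed per goat and gate (16 sums) and tested with edgeR 4.0.16 (R 4.3.3, TMM scaling, quasi-likelihood test, goat as block), and by breed within pericytes without a block. Benjamini-Hochberg adjustment ran over all genes tested, at 0.05. Fold changes are log2 with standard errors. Gate genes stayed out of the class tests. Alternatives changed the gate, the filters, the scaling, the tool (DESeq2 1.42.0) and the libraries included. The code was tested on simulated data. Since goats and libraries coincide, p-values measure the spread between these samples. The gate, its members and the gene lists were chosen with earlier results of these data known. Genes outside the lists were named as up to 10 per direction with the largest change among those called, moving alike in all 4 goats, with a mean of at least 50 CPM in the higher class and a symbol that is not a locus tag. A few called genes of the lists and of this rule are not reported here.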

Additional observations from a re-analysis of the deposited data

Results flagged for a closer look

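Among 71 values tested for a sample far from the other 3 goats, 18 stood out. Chance marks about 1 in 20 such groups, a rate that does not hold for the 8 genes given last, where 3 libraries at 0 fix the outcome. In Nubian 2, POSTN (471 CPM), MYL9 (342 CPM), WFDC1 (1694 CPM), OGN (948 CPM) and the summed epithelial markers (1404 CPM) were far above the other libraries, and the same nucleus gave 100%, 97.0%, 96.6% and 97.3% of the UMIs of the 4 genes there. In Du'an 2, CA10 (881 CPM) and ADRA1A (139.8 CPM) did so, as did RIMS2 in Du'an 1 (424 CPM, with 94.7% of its UMIs from 1 nucleus) and FGF14 in Nubian 1 (79.5 CPM). RGS5 in Du'an 2 (298 CPM) is also among the 18. The rule chose the nuclei by its UMIs, so the chance rate does not hold for it and no result is drawn from it. The remaining 8 were genes with a few UMIs in 1 library and none in the other 3, namely MUSK (8.36 CPM), SLCO2A1 (6.97 CPM), BMX (2.79 CPM), TRPM6 (6.08 CPM), JAG2 (5.66 CPM), MYCT1 (2.79 CPM), SEMA3G (1.39 CPM) and CALN1 (2.79 CPM).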

How the results depend on the processing

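With 1 library left out, calls ranged from 9 to 106 against smooth muscle, from 15 to 196 against stromal cells, from 1210 to 1796 against blood endothelium and from 0 to 544 by breed, and the share difference from -0.143 to 0.413. The lowest class counts came without Du'an 1, and the 544 without Nubian 1. The 3 class counts (143, 228 and 1874) otherwise stayed within 1.5 times except as follows. Against smooth muscle 432 genes were called with the study's nuclei filter, 74 without nuclei of 3 or more smooth muscle genes, 509 without nuclei holding other cells' transcripts, 399 with nuclei thinned to 2000 UMIs, 334 without a filter on low counts and 408 with DESeq2. Against stromal cells these were 391, 30, 508, within 1.5 times, 380 and 462. Against endothelium 1097 were called without nuclei of 3 or more smooth muscle genes. By breed, 241 were called without the filter and 90 with DESeq2. The cause was not tested. The share difference turned to -0.0383 without nuclei holding other cells' transcripts and to -0.00586 after thinning to 1000 UMIs. Beside 0.135 in the main setting, it was 0.0303 with both NOTCH3 and RGS5 required and 0.0798 with at least 3 support genes. Without nuclei of 3 or more smooth muscle genes it was 0.0799. The thinning to 2000 UMIs and the removals of the deepest nuclei and of the nucleus of Nubian 2 that held POSTN were chosen after seeing the data.

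Over 258 gene comparisons, 3360 alternative values kept direction and call, 693 kept the direction alone and 9 reversed. Without nuclei of 3 or more smooth muscle genes, log2 fold changes against stromal cells were -0.15 for CALCRL, -0.24 for KCNAB1 and -0.0867 for TRPM3, and against endothelium -0.0430 for INSR and -0.0496 for MYL9. Without nuclei holding other cells' transcripts those against endothelium were -8.49 for CYP19A1, which that setting removes by construction, -0.57 for MYL9 and -1.17 for PTGFR. With both NOTCH3 and RGS5 required, CDH2 was at -0.0766 against endothelium.

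Replicate numbers name goats only. With the replicate block, 0 genes were called by breed (242 at an unadjusted p under 0.05), and the correlation of same-numbered deviations was -0.049 across 3978 genes, which are not independent replicates. The pericytes of Nubian 2 are 18 nuclei. The part of that depth in the breed test was not tested, and without that library edgeR called 0 genes (151 at an unadjusted p under 0.05).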

Other observations

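Markers of other cell types were also read in the class comparisons. Of 10 immune markers tested, 5 were lower in pericytes than in blood endothelium by the edgeR test and none higher, and each of 4 lymphatic markers was lower (median log2 fold change -3.25). Of all 9597 genes, 10% were lower there. The immune markers C1QA, C1QB, MSR1 and VSIG4 had 10, 15, 12 and 8 UMIs in all pericytes, and the lymphatic marker LYVE1 had 6. Such genes entered the test through other classes, which fixed their direction, so both counts and the median are a description. The summed immune markers had 164, 2651, 202 and 4590 CPM in endothelium against 39.6, 334, 431 and 67.3 in pericytes, so Nubian 1 went the other way. VWF, the endothelial von Willebrand factor, fell by 4.74 on the log2 scale. LUM, COL1A1 and COL3A1, the 3 stromal markers tested, were higher than in endothelium. Against smooth muscle edgeR called none of them, while all 3 had an unadjusted p under 0.05 and DESeq2 called 3. Against stromal cells edgeR called none, with 2 at that p and 1 called by DESeq2. KRT18 was called against stromal cells and endothelium, and 99 of its 102 UMIs came from the deepest nucleus of Nubian 2, without which it did not pass the filter on low counts, while DESeq2 called none of the 3 epithelial markers tested. Of the 3 theca markers tested, edgeR called LHCGR alone, against endothelium, where each had an unadjusted p under 0.05 and DESeq2 called 2. Of the 4 cycling markers tested, neither tool called any, and 0 had an unadjusted edgeR p under 0.05 in any of the 3 comparisons.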
